A study of Homo sapiens with 16 samples.

Results

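POLR1B and CD3EAP encode subunits of RNA polymerase I, the nuclear enzyme that transcribes the ribosomal RNA genes in the nucleolus. They are 2 of the 594 genes measured on an nCounter immunology panel in OCI-AML2 cells, and they are the only members on that panel of a list of 22 polymerase I subunits and factors. They were selected on their measured values in these samples, low on day 3 and higher later, so that course is described below without a test. Values were divided in each sample by the geometric mean of the 14 panel housekeeping genes other than POLR1B, which is itself a housekeeping gene of the panel, and log2(value + 1) was taken.

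RNA polymerase I has a core of many subunits, of which the 2 largest form the catalytic centre. POLR1B is the second-largest subunit and makes up part of that centre. CD3EAP, also named PAF49 or ASE-1 and now POLR1G, forms a dimer with another subunit that sits on the core and takes part in initiation and elongation. Synthesis of ribosomal RNA sets the capacity of a cell to make protein, follows growth and proliferation, and is often high in leukaemia cells.

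OCI-AML2 is an established human cell line from acute myeloid leukaemia. All cells were transduced with short hairpin RNA against PNPase, encoded by PNPT1, or against SUV3, encoded by SUPV3L1, which together degrade RNA in mitochondria. The groups are PNPase knockdown on days 3, 4, 5 and 6 and SUV3 knockdown on the same days, each with 2 replicates, 545 and 1717 for PNPase and 1595 and 1727 for SUV3, which gives 16 samples. The design text calls the replicates biological and takes all days from each. It does not say what the numbers stand for, so that a difference between hairpin constructs could be part of the replicate spread. Control cells, PNPT1 and SUPV3L1 were not analysed here, and every comparison is between the knockdowns or between days.

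Totals over all genes ran from 311396 to 493370 per sample. The housekeeping factor that was divided out ran from -0.36 to 0.51 on days 4 to 6, against -0.47 to -0.07 on day 3, in log2 units around the mean of all samples, and its part in the results below was not tested beyond the other scalings given. The factor of the 6 spiked positive controls ran from -0.26 to 0.21 on days 4 to 6 and from -0.26 to 0.29 on day 3. Over all samples the mean of 8 negative control probes was 6.80 (SD 3.05), and a gene is called above the negative controls where its mean exceeds 12.9, that mean plus 2 SD. This held for 354 of the 594 genes. Of 11 markers of myeloid cells and leukocytes matched to the panel by exact symbol, 10 did. Among them was the granulocyte colony-stimulating factor receptor gene CSF3R, with deposited values of 526 to 1016. PTPRC, also listed, is on the panel as PTPRC_all, at a mean of 3915.6, and was left out of this count and of the sum below. Others of the list were low, with ITGAM at 10 to 37 and CD14 at 10 to 60, and CSF1R, at 6 to 21, was not above the negative controls. Of 14 T cell and NK cell markers 1 was, NCAM1, at 205 to 647, which made up most of the sum of that list given below. Of 6 B cell markers 3 were, the highest, CD79B, reaching 37. The summed markers ran from 2879 to 6570 on days 4 to 6 and from 3038 to 5028 on day 3 for myeloid cells, from 257 to 732 and from 293 to 387 for T and NK cells, and from 73 to 99 and from 65 to 102 for B cells. Their part in the results was not tested.

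POLR1B has 2 annotated starts on chromosome 2, and CD3EAP has 1 on chromosome 19, in the RefSeq annotation of GRCh38.p14. The windows from 250 bases before to 50 bases after each start are printed as the promoter regions of the 2 genes. Both were chosen for being low on day 3 and higher later, and a shared control of them was not tested. All lie on the plus strand and are written 5′ to 3′. Capitals mark matches, on either strand, to the ETS core CCGGAA, the GC box GGGCGG and the E-box CACGTG. The searched CCAAT box and the TATA box, TATAAA, had no match in any of the 3 windows.
POLR1B start 1 (chr2:112541786-112542085): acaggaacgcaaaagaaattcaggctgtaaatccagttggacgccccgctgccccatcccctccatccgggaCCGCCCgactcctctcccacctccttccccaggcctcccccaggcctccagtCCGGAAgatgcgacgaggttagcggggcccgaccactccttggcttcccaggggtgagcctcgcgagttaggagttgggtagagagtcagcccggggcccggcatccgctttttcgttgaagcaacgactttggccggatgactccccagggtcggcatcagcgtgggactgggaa
POLR1B start 2 (chr2:112542215-112542514): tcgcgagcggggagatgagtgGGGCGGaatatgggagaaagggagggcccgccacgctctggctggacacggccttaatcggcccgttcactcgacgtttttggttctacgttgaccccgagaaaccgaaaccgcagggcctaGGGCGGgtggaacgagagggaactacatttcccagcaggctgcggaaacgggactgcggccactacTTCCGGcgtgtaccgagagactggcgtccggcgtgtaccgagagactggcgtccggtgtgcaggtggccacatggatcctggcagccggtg
CD3EAP (chr19:45406394-45406693): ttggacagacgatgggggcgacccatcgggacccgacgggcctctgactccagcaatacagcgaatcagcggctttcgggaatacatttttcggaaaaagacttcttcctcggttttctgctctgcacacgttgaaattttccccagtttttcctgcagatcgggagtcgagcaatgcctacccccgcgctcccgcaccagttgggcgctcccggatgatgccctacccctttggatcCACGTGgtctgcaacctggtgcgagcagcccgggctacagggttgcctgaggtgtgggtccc

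The POLR1B windows shared the same kinds of match and the CD3EAP window had another. At start 1 of POLR1B an ETS core began at position -126 from the start and a GC box at -178. At start 2 an ETS core began at position -41, and GC boxes began at -229 and -107. The CD3EAP window held 1 E-box, at position -12, and none of the other motifs. Of 35116 promoter windows of this length in the table, 17.2% held the ETS core, 44.95% the GC box, 7.26% the E-box, 34.6% CCAAT and 11.5% TATAAA. None of the motifs overlapped another in these windows. The share of G and C was 63.7% in both POLR1B windows and 59.0% in that of CD3EAP. The annotated span of CD3EAP overlaps ERCC1, a DNA repair gene read from the opposite strand, that of POLR1B overlaps 2 other genes, and where the panel's probes lie is not stated in the labels or files.

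POLR1B, the second-largest subunit, lay higher on days 4, 5 and 6 than on day 3 in each of the 4 replicates. After PNPase knockdown its deposited values on days 3, 4, 5 and 6 were 231, 388, 442 and 479 in replicate 545. In replicate 1717 they were 169, 446, 520 and 513. On the scaled log2 scale this is 7.92, 8.63, 8.47 and 8.49 in replicate 545, and 7.87, 8.55, 8.68 and 8.49 in replicate 1717. Both PNPase replicates had nearly all of their difference by day 4, and their values on day 6 were equal to the second decimal.

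After SUV3 knockdown the deposited values of POLR1B were 200, 421, 438 and 490 in replicate 1595 on days 3 to 6. In replicate 1727 they were 252, 337, 397 and 418. The scaled log2 values were 8.12, 9.08, 8.82 and 8.98 in replicate 1595, and 8.23, 8.59, 8.67 and 8.62 in replicate 1727. Replicate 1595 had the highest of all 16 values on day 4 and the lower of both SUV3 values on day 3. Replicate 1727 had the highest day 3 value of the 4 replicates and the smallest difference afterwards.

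Taken over replicates, the mean of days 4 to 6 minus day 3 for POLR1B was 0.61 in replicate 545, 0.70 in replicate 1717, 0.83 in replicate 1595 and 0.40 in replicate 1727. The mean was 0.64 ± 0.18 (SD, n = 4) on the scaled log2 scale, 1.55-fold. All 12 later samples lay between 8.47 and 9.08, above the 4 day 3 samples, which lay between 7.87 and 8.23.

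CD3EAP, the dimer subunit, had the larger difference. After PNPase knockdown its deposited values on days 3 to 6 were 123, 254, 310 and 355 in replicate 545. In replicate 1717 they were 120, 355, 441 and 399. The scaled log2 values were 7.02, 8.02, 7.96 and 8.06 in replicate 545, and 7.38, 8.22, 8.44 and 8.13 in replicate 1717. Replicate 1717 lay above replicate 545 on every day, by the least on day 6.

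After SUV3 knockdown the deposited values of CD3EAP were 93, 189, 248 and 223 in replicate 1595. In replicate 1727 they were 127, 178, 207 and 305. The scaled log2 values were 7.02, 7.92, 7.999 and 7.85 in replicate 1595, and 7.24, 7.68, 7.74 and 8.16 in replicate 1727. Replicate 1595 was level from day 4 on, whereas replicate 1727 had its highest value on day 6. The lowest of all 16 deposited values, 93, was still far above that limit of 12.9.

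The mean of days 4 to 6 minus day 3 for CD3EAP was 0.997 in replicate 545, 0.88 in replicate 1717, 0.90 in replicate 1595 and 0.61 in replicate 1727. The mean was 0.85 ± 0.16 (SD, n = 4), 1.80-fold. All 12 later samples lay between 7.68 and 8.44 and the 4 day 3 samples between 7.02 and 7.38, so that for this gene too the days did not overlap. Replicate 1727 had the smallest difference for both genes.

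**Figure D1:**
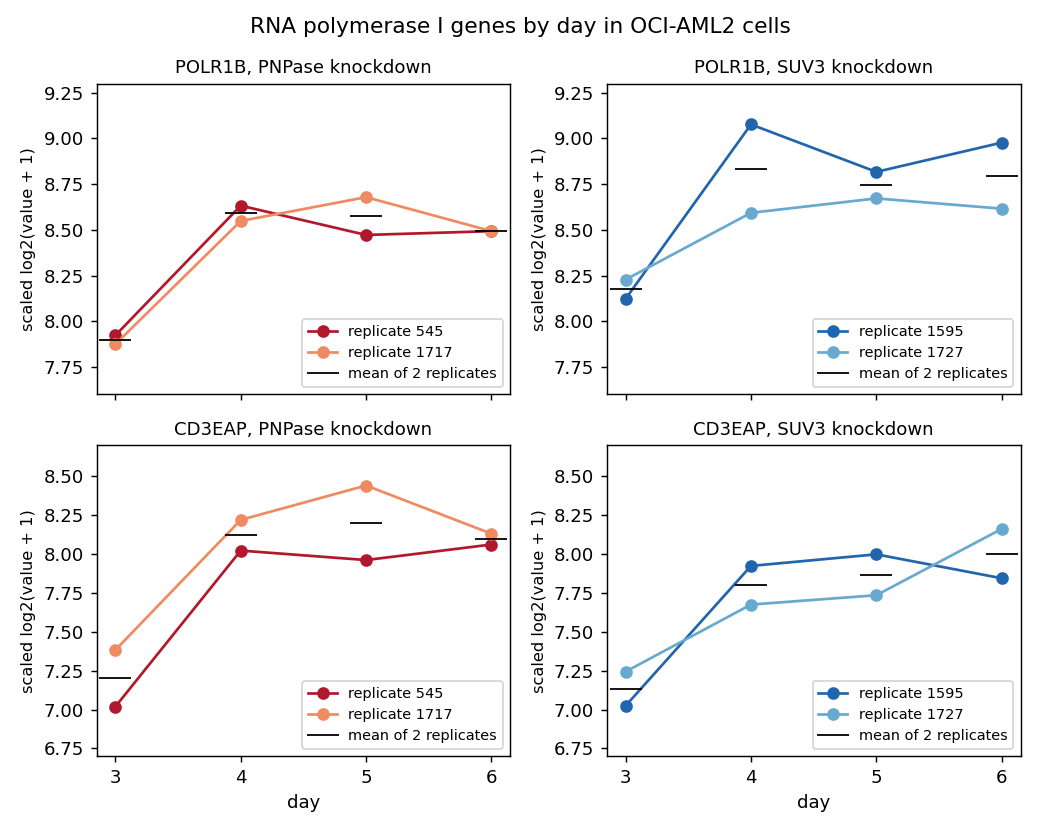
Scaled log2(value + 1) of POLR1B (upper row) and CD3EAP (lower row) against day, with PNPase knockdown on the left and SUV3 knockdown on the right; each line is 1 replicate and the black bars are means of 2. Day 3 is the lowest point of every line, from 7.87 to 8.23 for POLR1B and from 7.02 to 7.38 for CD3EAP.

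Such a separation was seen for few genes of the panel. All 12 later samples lay above all 4 day 3 samples for 6 of the 594 genes, 1.01% (1.69% of the 354 genes above the negative controls), and each later day lay above day 3 within all 4 replicates for 31 genes, 5.22%. Both members were chosen for this and are among them. The other 4 were CCR2, a chemokine receptor, TLR2, a receptor for bacterial lipoproteins, TRAF2, an adaptor of tumour necrosis factor receptors, and FKBP5, a co-chaperone of steroid receptors, named after their values were seen. In the opposite direction 20 genes, 3.37%, had all later samples below day 3. They included CDKN1A, which encodes the cell cycle inhibitor p21, with a mean difference of -4.20, and BAX, a promoter of apoptosis, with -0.72, chosen in the same way. Over all genes the median of this difference was -0.15, and it was above 0 for 35.2%. Among the 354 genes above the negative controls CD3EAP had the 6th and POLR1B the 12th largest mean difference.

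The 14 genes used for scaling lay on both sides of 0. POLR2A, the largest subunit of RNA polymerase II, had a mean difference between days 4 to 6 and day 3 of -0.36 ± 0.26 (SD, n = 4), below 0 in all replicates. TBP, the TATA-binding protein, which serves the polymerases I, II and III alike, had 0.27 ± 0.03 (SD, n = 4) and was above 0 in all replicates. Among the other genes of transcription and translation, the ABCF1 gene of translation initiation had 0.18 ± 0.20, the elongation factor gene EEF1G -0.15 ± 0.18 and the ribosomal protein gene RPL19 -0.16 ± 0.09 (SD, n = 4 each). Of these 5 genes, out of 9 listed, 2 had a difference above 0, and their median was -0.15, equal to that of all genes. Because these genes enter the scaling, their values are relative to one another.

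**Figure D2:**
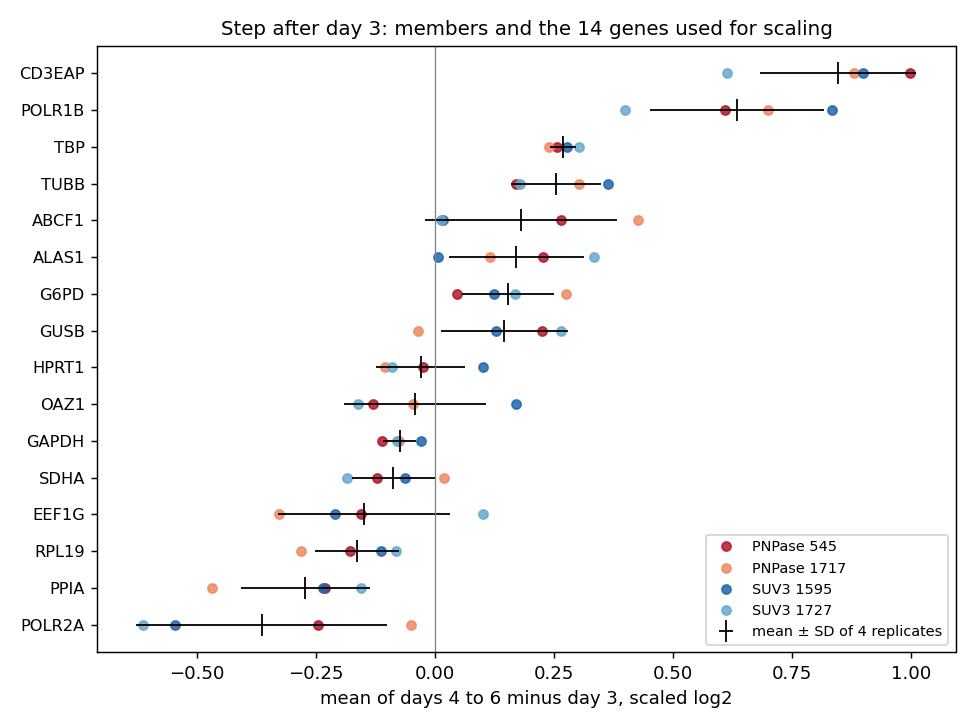
Mean of days 4 to 6 minus day 3 on the scaled log2 scale (horizontal axis) for CD3EAP, POLR1B and the 14 genes used for scaling (rows); dots are the 4 replicates and black marks their mean ± SD. CD3EAP at 0.85 and POLR1B at 0.64 stand right of every gene used for scaling, of which TBP at 0.27 is the next and POLR2A at -0.36 the lowest.

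A ratio of deposited values within a sample needs no scaling. The log2 ratio of POLR1B to POLR2A ran from -1.78 to -0.87 on days 4 to 6, against -2.55 to -2.40 on day 3. Its mean difference was 1.0003 ± 0.28 (SD, n = 4), and replicate 1595, at 1.38, had the largest. The ratio of CD3EAP to POLR2A ran from -2.56 to -1.75 on days 4 to 6 and from -3.54 to -2.89 on day 3, a mean difference of 1.22 ± 0.21 (SD, n = 4). For both ratios the later days and day 3 did not overlap. Set against TBP, the differences were smaller, at 0.58 ± 0.19 for CD3EAP and 0.37 ± 0.20 for POLR1B (SD, n = 4 each). The ratio of POLR1B to TBP ran from -0.57 to 0.01 on days 4 to 6 and from -0.94 to -0.49 on day 3, so the ranges overlapped, and in replicate 1727 its difference was 0.10. The ratio of CD3EAP to TBP ran from -1.31 to -0.63 on days 4 to 6 and from -1.76 to -1.43 on day 3, with no overlap. The share of all genes with such a separation against POLR2A or TBP was not determined. POLR2A itself had a mean scaled difference of -0.36, below the median of -0.15 over all genes, so a gene at that median also rose against it.

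The size of the difference depended on the scaling, and its direction did not under the 6 scalings tried. With no scaling it was 1.05 ± 0.40 for POLR1B and 1.26 ± 0.37 for CD3EAP, and with the positive controls it was 1.07 ± 0.47 and 1.28 ± 0.45 (SD, n = 4 each). Under these 2 scalings the median over all genes was 0.25 and 0.26 in place of -0.15. A scaling shifts the log2 difference of every gene by the same amount, apart from the pseudocount. The distance from the median of all genes was therefore nearly fixed in advance, at 0.78 to 0.80 for POLR1B and 0.99 to 1.01 for CD3EAP under all 6. Later and day 3 samples did not overlap for either gene under any of them, and the share of genes with such a separation ran from 0.842% to 4.04%. Leaving out each of the 14 housekeeping genes in turn gave 0.61 to 0.66 for POLR1B and 0.82 to 0.87 for CD3EAP.

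**Figure D3:**
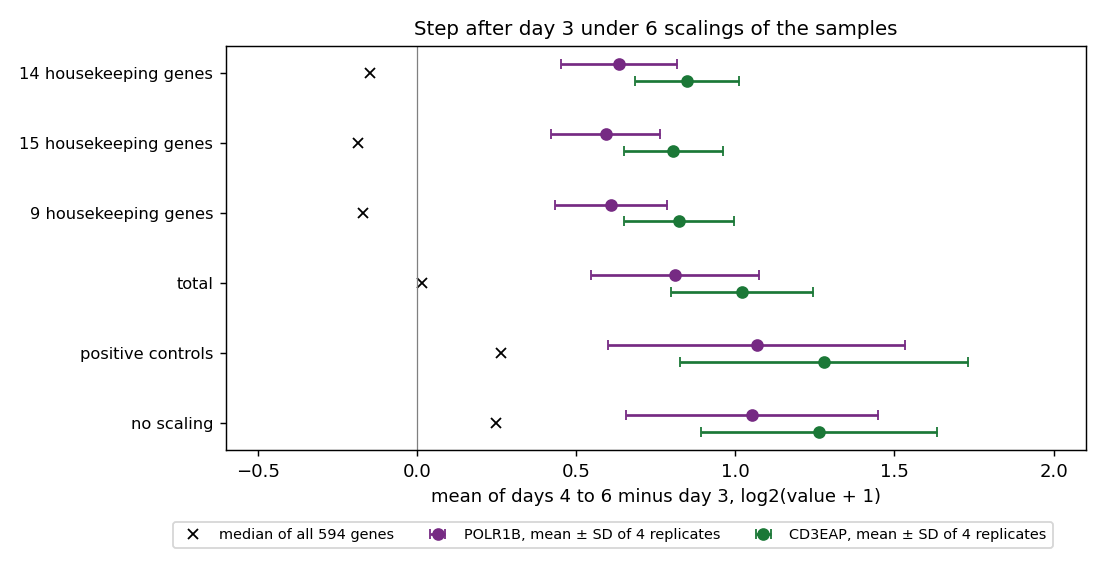
Mean of days 4 to 6 minus day 3 in log2(value + 1) (horizontal axis) for POLR1B and CD3EAP under 6 scalings of the samples (rows), with the SD of 4 replicates as bars and the median of all 594 genes as crosses. The members move with the median, as any gene must under a common scaling, from 0.59 to 1.07 for POLR1B and from 0.81 to 1.28 for CD3EAP.

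The slope within days 4 to 6 was not named in the choice of the members, although the values of those days entered it. This slope was tested. A line over days 4, 5 and 6 with an intercept for each replicate was fitted to all genes with limma, and p-values were adjusted over the 594 genes. The slope of POLR1B was -0.03 ± 0.05 (SE) per day on the scaled log2 scale, both knockdowns averaged, with a 95% interval from -0.14 to 0.08 (limma adjusted p = 0.822). That of CD3EAP was 0.04 ± 0.06 (SE) per day, with an interval from -0.10 to 0.19 (limma adjusted p = 0.822). Limma called 0 genes, 0% of the panel, in this comparison, and 81 genes, 13.6%, had an unadjusted p under 0.05. Over all genes the median was -0.06 per day.

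Within each knockdown the members gave values of the same order. After PNPase knockdown the change per day was -0.05 ± 0.07 (SE) for POLR1B and -0.01 ± 0.09 (SE) for CD3EAP. After SUV3 knockdown it was -0.02 ± 0.07 (SE) for POLR1B and 0.10 ± 0.09 (SE) for CD3EAP. The last value rested on replicate 1727, since without that replicate it was -0.04. None of these 4 passed, with limma adjusted p from 0.835 to 0.969, and 0% of genes were called in either knockdown. An unadjusted p under 0.05 was found for 10.8% of genes after PNPase and 6.23% after SUV3 knockdown. With no scaling both genes had positive values in both knockdowns, 0.13 per day for POLR1B in each, and none passed, so a slow change in either direction cannot be told apart from the housekeeping factor.

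The difference between the knockdowns was not named in the choice either, although the values of both knockdowns entered it. In change per day over days 4 to 6 it was -0.03 ± 0.09 (SE) for POLR1B and -0.11 ± 0.13 (SE) for CD3EAP, PNPase minus SUV3 (limma adjusted p = 0.996 each). Limma called 0.168% of genes here, which is 1 gene, ITGA2B, with deposited values from 5 to 43, and 5.39% had an unadjusted p under 0.05. In the difference between days 4 to 6 and day 3, the knockdowns differed by 0.04 ± 0.17 (SE) for POLR1B, with an interval from -0.33 to 0.41, and by 0.18 ± 0.20 (SE) for CD3EAP, with an interval from -0.25 to 0.62. Neither passed (limma adjusted p = 0.984 and 0.852), and 0% of genes were called, with 8.25% at an unadjusted p under 0.05. Both genes were chosen on these same day 3 and later values, so this test is not independent of the choice. The sign for POLR1B turned without replicate 1717, at -0.01, and without replicate 1727, at -0.18, and its value was 0.26 without replicate 1595. CD3EAP had 0.04 without replicate 1727 and 0.33 without replicate 1595. With no scaling the differences were 0.34 for POLR1B and 0.49 for CD3EAP, and with the positive controls 0.49 for POLR1B and 0.63 for CD3EAP, these last 2 lying above the upper ends of those intervals; none passed.

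Over all days the members lay on opposite sides in the comparison of the knockdowns. POLR1B averaged 8.38 in replicate 545 and 8.40 in replicate 1717, 8.39 ± 0.01 (SD, n = 2) after PNPase knockdown. It averaged 8.75 in replicate 1595 and 8.53 in replicate 1727, 8.64 ± 0.16 (SD, n = 2) after SUV3 knockdown. Both PNPase replicates were lower, which also held for 31.3% of all genes. The difference, PNPase minus SUV3, was -0.25 ± 0.23 (SE), with an interval from -0.82 to 0.32 (limma adjusted p = 0.799). It was -0.14 without replicate 1595 and -0.36 without replicate 1727, and it turned to 0.07 with no scaling. The factor of the positive controls ran from 0.02 to 0.29 in PNPase samples and from -0.26 to 0.01 in SUV3 samples, and scaled on it the difference was -0.21.

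CD3EAP averaged 7.77 in replicate 545 and 8.04 in replicate 1717, 7.91 ± 0.20 (SD, n = 2) after PNPase knockdown. It averaged 7.70 in both SUV3 replicates, 7.70 ± 0.005 (SD, n = 2). Both PNPase replicates were higher, as for 7.91% of genes. The difference was 0.20 ± 0.23 (SE), with an interval from -0.38 to 0.79 (limma adjusted p = 0.839). It was 0.07 without replicate 1717, 0.34 without replicate 545 and 0.52 with no scaling. Limma called 0% of genes between the knockdowns, with 6.73% at an unadjusted p under 0.05, and the median over all genes was -0.17.

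The ratio of CD3EAP to POLR1B within a sample sets both genes against each other without any scaling, and was examined after the values were seen. On the log2 scale it averaged -0.62 in replicate 545 and -0.36 in replicate 1717 after PNPase knockdown. It averaged -1.05 in replicate 1595 and -0.83 in replicate 1727 after SUV3 knockdown. The means were -0.49 ± 0.18 and -0.94 ± 0.16 (SD, n = 2 each), a difference of 0.45, PNPase minus SUV3. The ratio is one of deposited values for different probes and says nothing of the amounts of the transcripts relative to each other.

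By day, the CD3EAP to POLR1B ratio was -0.91 and -0.49 after PNPase knockdown on day 3, against -1.10 and -0.99 after SUV3 knockdown. On day 6 it was -0.43 and -0.36 after PNPase knockdown, against -1.14 and -0.45 after SUV3 knockdown. On all 4 days both PNPase replicates lay above both SUV3 replicates, on day 6 by a narrow margin. Of 593 genes set against POLR1B in the same way, 27, 4.55%, did so on all days, and 5, 0.843%, lay below on all days. With 2 against 2 replicates the exact permutation test gave p = 0.333 (two-sided), the smallest that this test allows at this size. The difference was 0.32 to 0.58 without each replicate in turn.

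**Figure D4:**
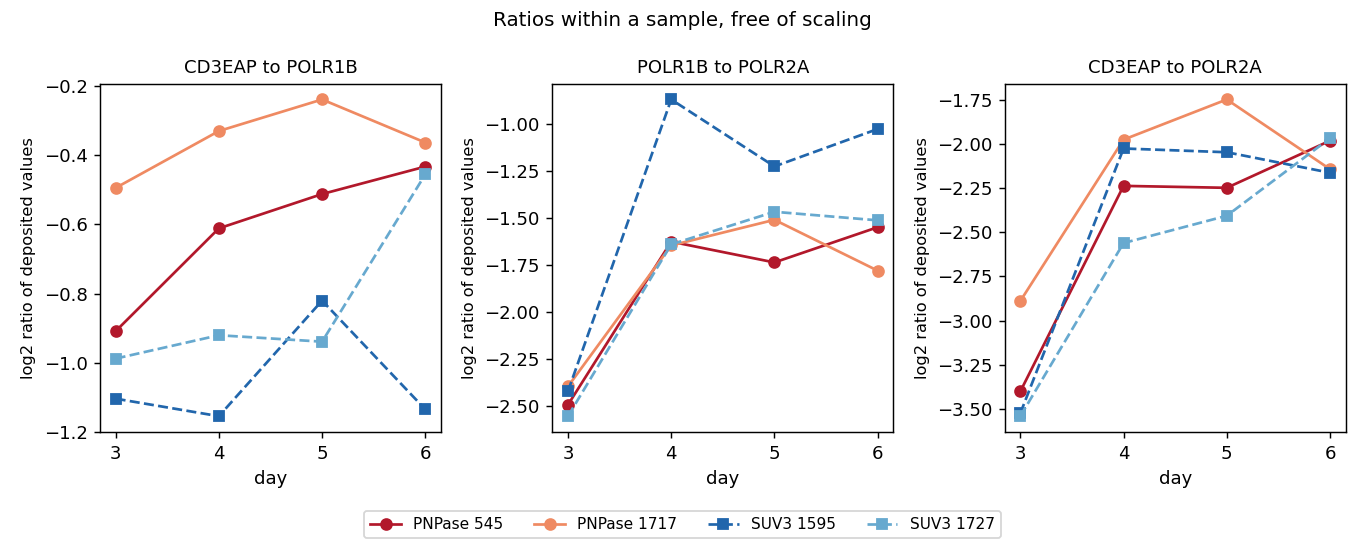
Log2 ratio of deposited values within a sample (vertical axes) against day for CD3EAP to POLR1B, POLR1B to POLR2A and CD3EAP to POLR2A, with PNPase replicates as circles on solid lines and SUV3 replicates as squares on dashed lines. In the left panel the PNPase replicates average -0.62 and -0.36 and the SUV3 replicates -1.05 and -0.83, and in the other panels day 3 is the lowest point of every line.

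Ordered by mean scaled log2 value over the 8 groups, POLR1B was highest after SUV3 knockdown on day 4, at 8.84 ± 0.34, followed by SUV3 day 6 at 8.80 ± 0.26 and SUV3 day 5 at 8.74 ± 0.10 (SD, n = 2 each). Then came PNPase day 4 at 8.59 ± 0.06, day 5 at 8.58 ± 0.15 and day 6 at 8.49, where both replicates were equal to the second decimal. SUV3 day 3 at 8.18 ± 0.07 and PNPase day 3 at 7.90 ± 0.03 were the lowest. Neighbours overlapped in their 2 values within the SUV3 and within the PNPase groups of days 4 to 6. They did not overlap between SUV3 day 5 and PNPase day 4, between PNPase day 6 and SUV3 day 3, and between the day 3 groups. With 2 values per group these gaps are a description, and the share of all genes with such gaps was not determined.

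CD3EAP had another order. PNPase day 5 was highest at 8.20 ± 0.34, followed by PNPase day 4 at 8.12 ± 0.14, PNPase day 6 at 8.10 ± 0.05, SUV3 day 6 at 8.004 ± 0.22, SUV3 day 5 at 7.87 ± 0.19 and SUV3 day 4 at 7.80 ± 0.18. PNPase day 3 at 7.20 ± 0.26 and SUV3 day 3 at 7.13 ± 0.16 were the lowest (SD, n = 2 each). The only neighbours that did not overlap were SUV3 day 4 and PNPase day 3. Here too the share of all genes with such a gap was not determined.

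Genes with the most similar course were found with each replicate centred on its own mean, over the 16 samples and the 354 genes above the negative controls. Pearson's r served as the measure of likeness and is a description, since the samples come from 4 replicates and the difference from day 3 dominates it. For POLR1B the nearest genes were TRAF2 at 0.95, GFI1, a transcriptional repressor of blood cell development, at 0.94, CD3EAP at 0.93, CCR2 at 0.93 and TBP at 0.90. For CD3EAP they were TRAF2 at 0.94, POLR1B at 0.93, TBP at 0.92, CCR2 at 0.92 and GFI1 at 0.90. Apart from each other, the members thus had the same 4 nearest genes, by a measure dominated by the difference they were chosen for. The median r over all other genes was -0.14 for POLR1B and -0.15 for CD3EAP, and 13 and 17 genes had an r above 0.8.

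These nearest genes differed in the size of their own difference between days 4 to 6 and day 3. CCR2 had 1.31 ± 0.24, GFI1 0.67 ± 0.07, TRAF2 0.53 ± 0.11 and TBP 0.27 ± 0.03 (SD, n = 4 each), all above 0 in 4 of 4 replicates. Over days 4 to 6 alone, 12 samples, the r between POLR1B and CD3EAP was 0.15, which ranked POLR1B 97th among the 353 genes for CD3EAP, and CD3EAP 213th for POLR1B. Over these days many other genes were nearer to each member than the other member was. The r of POLR1B was then 0.15 with TRAF2, 0.64 with GFI1, 0.32 with CCR2 and 0.27 with TBP. That of CD3EAP was 0.33 with TRAF2, 0.05 with GFI1, 0.01 with CCR2 and 0.48 with TBP.

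RUNX1, a blood transcription factor that also binds ribosomal RNA genes, had a mean difference between days 4 to 6 and day 3 of 0.21 ± 0.22 (SD, n = 4), against a median of -0.15 over all genes. By replicate, RUNX1 had 0.39 and 0.40 after PNPase knockdown and 0.01 and 0.02 after SUV3 knockdown. The test of that difference gave 0.38 ± 0.17 (SE), which did not pass (limma adjusted p = 0.596). It was not particular to RUNX1, with 0.43 ± 0.14 (SE) for POLR2A and 0.33 ± 0.13 (SE) for ABCF1. It was -0.19 for EEF1G, -0.13 for RPL19 and -0.04 for TBP. In the tests of the knockdowns and of the course over days 4 to 6, neither RUNX1 nor any of the 5 genes of transcription and translation passed.

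CD3EAP carries the name of the CD3 epsilon chain of the T cell receptor, with which its product was reported to associate. The CD3 genes themselves were not above the negative controls in these cells. Deposited values ran from 1 to 13 for CD3E, from 1 to 8 for CD3D and from 2 to 11 for CD247. Their sum ran from 8 to 26 on days 4 to 6 and from 12 to 21 on day 3.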

How the data were processed

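The deposited tables hold a score for 594 genes and 14 control probes in 16 samples. Per the labels' protocols RNA was hybridised to barcoded probes of the nCounter Human Immunology v2 panel without enzymatic labelling. Only a table's name says that the authors removed unwanted variation; the labels and files do not state how this deposited score was made. The values were whole numbers, and across 171 low genes (mean 3 to 8) the ratio of variance to mean was 1.06. Both tables agreed for all 594 genes. Of the symbols 565 were current in RefSeq (GRCh38.p14), 12 were synonyms and 17 unmatched.

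Scaling used the 14 housekeeping genes without POLR1B, through their geometric mean per sample, before log2(value + 1). Limma 3.58.1 (lmFit, eBayes) in R 4.3.3 was fitted to all 594 genes adjusting p by Benjamini-Hochberg (threshold 0.05). The knockdowns were compared on 4 replicate means, and days with an intercept per replicate. The design text takes all days from each replicate; deviations of samples with the same number correlated across genes at 0.04 to 0.67. P-values of the comparison on replicate means measure the spread between these replicates. Those of the fits over days measure the scatter of single samples around the fitted course within replicates, and count each day as a separate measure. The fits were tested on simulated data. The named genes were both members, the 5 most similar to each by r, and listed genes; some listed genes are not reported here. The members and lists were chosen with earlier results of these data known.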

Additional observations from a re-analysis of the deposited data

How the results depend on the processing

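The difference between days 4 to 6 and day 3 kept its direction for both genes in all 31 alternatives. The members were chosen for that direction, and it held in every replicate. Leaving out a replicate could therefore not turn it, and the count is no test of it. It was 0.57 to 0.71 for POLR1B and 0.80 to 0.93 for CD3EAP without each replicate in turn. It moved by more than the replicate SD with no scaling (1.05 for POLR1B, 1.26 for CD3EAP), with the positive controls (1.07 and 1.28), against POLR2A (1.0003 and 1.22), against TBP (0.37 and 0.58) and, for CD3EAP, with the total (1.02). The ratios to POLR2A and TBP and the leaving out of single housekeeping genes were chosen after seeing the data.

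No alternative put a member past the threshold in any test. Some values changed sign. For POLR1B the difference between the knockdowns, -0.25, was 0.073 with no scaling, and -0.36 to -0.14 without each replicate. Its change per day over days 4 to 6, averaged, after PNPase and after SUV3 knockdown, was 0.129, 0.126 and 0.132 with no scaling, 0.014, 0.020 and 0.0082 with the total, and 0.132, 0.148 and 0.115 with the positive controls; the difference of the lines was 0.012 with the total and 0.032 with the positive controls. For CD3EAP after PNPase knockdown it was 0.162 with no scaling, 0.057 with the total and 0.184 with the positive controls. Without each replicate, POLR1B ranged from -0.050 to 0.011 after SUV3 knockdown, from -0.060 to 0.00090 in the difference of the lines and from -0.18 to 0.26 in the difference of the knockdowns after day 3, where CD3EAP ranged from 0.04 to 0.33. CD3EAP ranged from -0.026 to 0.115 averaged, from -0.044 to 0.020 in the PNPase line, from -0.040 to 0.243 in the SUV3 line and from -0.26 to 0.027 in the difference of the lines. The cause was not tested.

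For PNPase over days 4 to 6 there was 1 gene called with no scaling, the total, the positive controls or subtracted negative controls, 6 of the 354 genes above the negative controls, and 0 to 3 without each replicate. With both knockdowns averaged there was 1 with 9 housekeeping genes and 4 of the 354 genes. The 1 gene called for the difference of the lines was not called (0) with 9 housekeeping genes, a pseudocount of 5, no replicate block, a random replicate block, day 6 minus day 4 or without any replicate. For the difference after day 3 there were 0 to 1 without each replicate. Taking the days as separate samples with no replicate block gave 65 genes between the knockdowns, with adjusted p = 0.377 for POLR1B and 0.602 for CD3EAP in limma. The replicate block changed no call of a member.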
